A study of Mus musculus with 6 samples.

Results

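The isoforms of 9 genes were described in mouse quadriceps muscle: Gpcpd1, Lypla1, Atp8a1, Csnk1a1, Ywhae, Ube2m, Trip12, Zmynd11 and Tns1. The genes were chosen on these same libraries for isoforms that differed between genotypes, so the differences below are a description and carry no test. All 117 transcript rows with these gene symbols were taken, of 105129 rows and 33641 gene symbols in the table. Values are TPM, the abundance of a transcript per 1000000 transcripts after division by its length, and an isoform's share is its TPM as a percentage of the summed TPM of its gene in the same library. Libraries were made from male mice 4 months old, born as littermates to heterozygous parents, with tissue taken near zeitgeber hour 4. In 3 libraries the mice were homozygous for the rs6190 allele, which copies a human variant of the glucocorticoid receptor gene into the mouse gene, and in the other 3 libraries (WT) they carried the reference allele on both chromosomes. The allele was inherited and not restricted to 1 cell type, and the table holds no bases, so the genotype labels could not be checked from it. The labels do not say that each library came from a separate mouse, so the spread between libraries may in part be technical. Whole muscle holds several cell types, and fewer cells of a type cannot be told apart from less RNA per cell.

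Most mammalian genes yield several transcripts, which differ in the promoter used, in the exons joined by the spliceosome and in the site where the transcript is cleaved and given its poly-A tail. An isoform can encode a shorter or altered protein, or none, as when an intron is retained or an early stop codon sends the transcript to nonsense-mediated decay. A quantifier divides reads from sequence that isoforms share by a statistical model, so the abundance of an isoform with little sequence of its own rests mostly on that model.

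Estimated depth was 15.9 to 21.8 M fragments per library (M, 1000000). All 7 skeletal muscle markers were above 0 in every library, at 7.96% to 13.6% of TPM, and lists for adipocytes, blood, immune, endothelial, Schwann cells and fibroblasts each made up at most 0.0851%. WT replicate 3 stood apart: 9 fast-fibre genes held 19.0% of its TPM against 8.10% to 10.8% in the others, and 8 slow-fibre genes 0.0205% against 0.101% to 0.910%. In WT replicate 3 transcripts annotated without their start held 2.01% of TPM against 1.11% to 1.19% in the other 5 libraries, and mitochondrial genes 14.3% against 20.9% to 33.9%. The summed levels of 2 marker lists did not overlap between genotypes. The slow-fibre list held 0.167% to 0.910% of TPM in homozygous and 0.0205% to 0.156% in WT libraries, with 6 of 8 genes higher in every homozygous library, and the Schwann list 0.00288% to 0.0105% against 0.00161% to 0.00251%, with 4 of 5 genes, where 34.7% of all genes were higher in every homozygous library. None of the slow-fibre or Schwann genes was at 0 in any library, and their part in the results below was not tested.

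In each of the 9 genes 1 isoform, called the lead isoform here, was at or close to 0 TPM or at a low level in WT muscle and higher in every homozygous library. The lead was the isoform past the threshold when abundance was tested over all isoforms (limma on log2(TPM + 1), adjusted p under 0.05). Of 21165 isoforms tested, 9 passed (0.0425%), 8 higher (0.0378%) and 1 lower (0.00472%) in homozygous muscle, and 6 of these 9 were the leads of Gpcpd1, Csnk1a1, Lypla1, Zmynd11, Ube2m and Tns1; since that contrast chose the genes, nothing is read from the excess. All 6 lead calls were lost without WT replicate 3, with no filter on low values or with a filter of 5 TPM. There 0 isoforms passed, though the leads of Zmynd11 and Tns1 did not pass the 5 TPM filter. Without any 1 homozygous library 0 isoforms passed as well, but the filter of 1 TPM in 3 or more libraries was applied again. The leads of Gpcpd1, Csnk1a1, Lypla1, Zmynd11 and Tns1 were under 1 TPM in every WT library and so went untested. For these leads those fits cannot show whether the calls rest on single homozygous libraries. The lead of Ube2m passed the filter and was not called. Trip12, Atp8a1 and Ywhae had no isoform past the threshold, and for these 3 genes the isoform with the smallest unadjusted p was taken after its values were seen. Among the 21165 isoforms tested, 4 were at 5 TPM or more in every homozygous library and under 0.01 TPM in every WT library (0.0189%). All 4 were leads: Gpcpd1-206, Ywhae-204, Csnk1a1-208 and Lypla1-203. The genes were chosen on this contrast, so nothing is read from that either. The reverse pattern was met by 0 isoforms (0%).

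**Figure D1:**
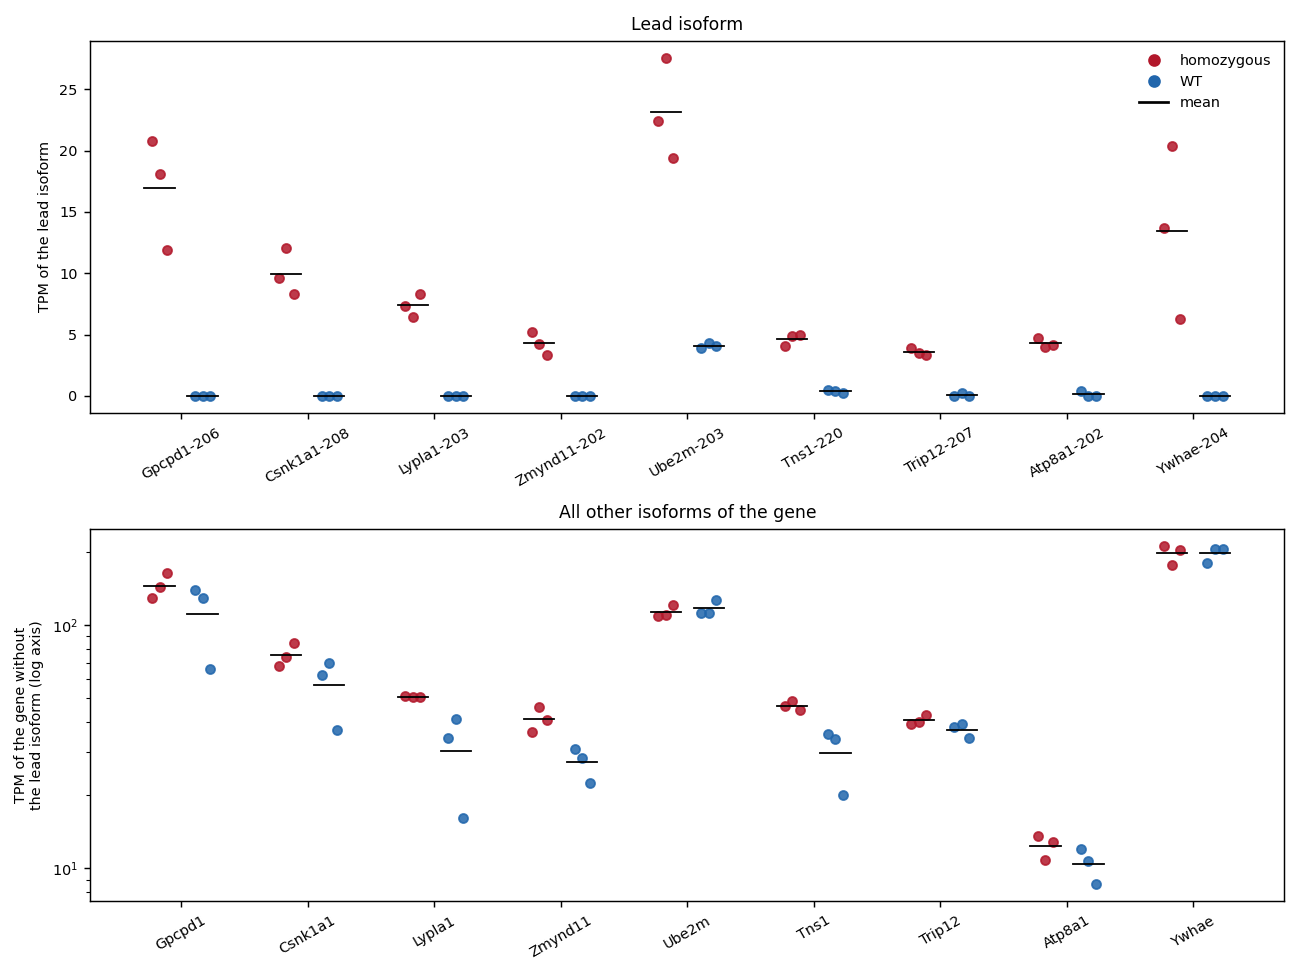
TPM of the lead isoform (upper panel, linear axis) and of all other isoforms of the gene together (lower panel, log axis) in each library, with 1 point per library and a bar at the group mean. The lead isoforms do not overlap between groups in any of the 9 genes, but they were chosen on this contrast, so nothing is read from that. The rest of the gene overlaps in 5 genes and is higher in every homozygous library in 4. Of all gene sums tested, 34.7% were higher in every homozygous library.

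A change in isoform share was not established for these genes by a test over all isoforms. On log2 of an isoform against the rest of its gene, 0 of 18886 isoforms passed in limma (0%), with a smallest adjusted p of 0.189 and 1952 isoforms at an unadjusted p under 0.05, and 0 of the 52 tested isoforms of the 9 genes were among those passed. The name of genotype-dependent isoform use therefore describes the choice of these genes and was not borne out by that test. The shares of 17 of the 52 were higher in every homozygous library than in any WT library (9.12% over all isoforms tested), and those of 10 were lower (8.97%). Without WT replicate 3 these counts were 19 (13.3%) and 13 (13.9%). In TPM, 21 of the 52 were higher in every homozygous library (25.6%) and 1 was lower (2.11%). The median log2 difference in isoform abundance was 0.63 over the 52 and 0.25 over all isoforms tested, and that of the log2 share ratio was -0.0087 and 0.011. The 52 include the 9 leads, chosen on this contrast, all of which are among those higher in every homozygous library. Several of them reached 1 TPM only in homozygous libraries, so nothing is read from these counts and medians.

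Summed over isoforms, 8 of the 9 genes were higher in every homozygous library (34.7% of 11099 genes tested), and Ywhae overlapped. The median log2 difference of the gene sums was 0.62 over the 9 genes and 0.26 over all genes. In limma 0 of 11099 gene sums passed (0%), with 2697 at an unadjusted p under 0.05 and a smallest adjusted p of 0.107. Without WT replicate 3 the same count was again 8, against 42.1% of all genes. The sums of the 9 genes include the leads, so nothing is read from the excess.

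**Figure D2:**
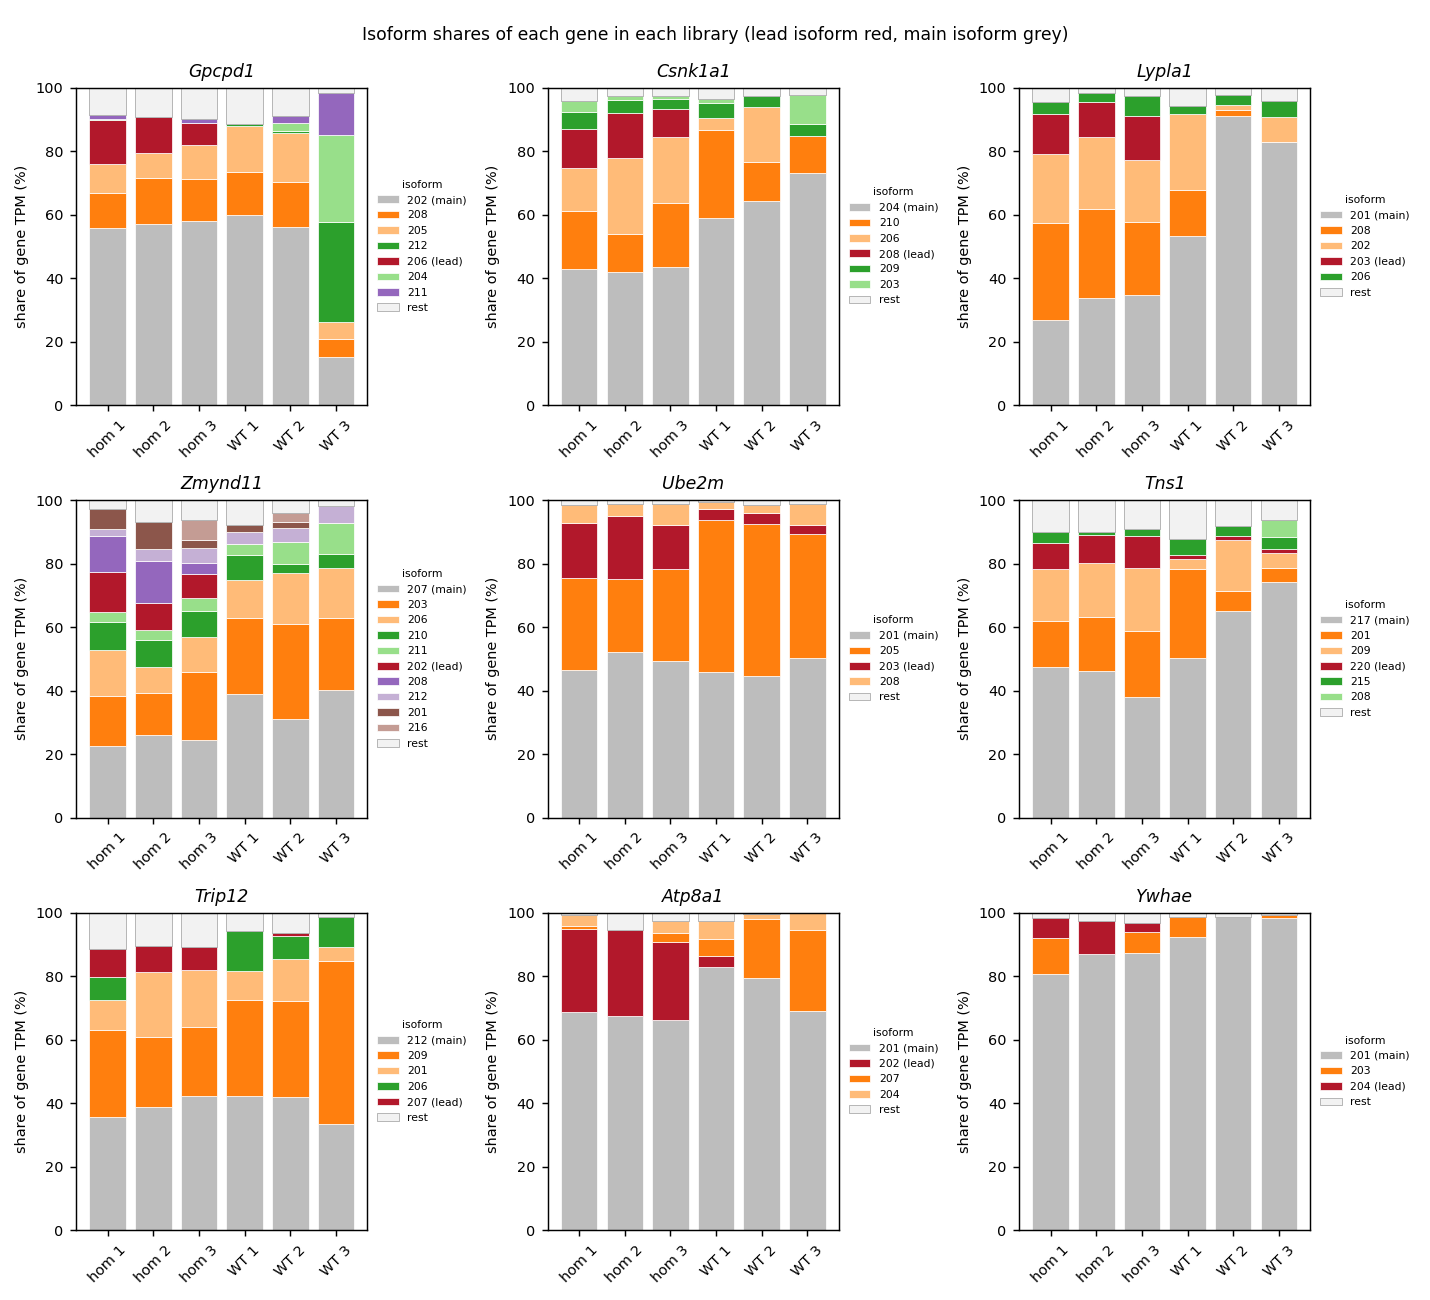
Share of the gene's TPM held by each isoform that reached 5% in any library (vertical axis, percent), 1 stacked bar per library (hom, homozygous); the lead isoform is red, the main isoform grey, and isoforms under 5% are pooled at the top. The red segment is wider in the homozygous bars of all 9 panels, and the Gpcpd1 bar of WT 3 differs from the other 5.

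Of the genes, 3 act on lipids or on lipid anchors of proteins. Gpcpd1 (chromosome 2, 132529082 to 132587729, minus strand, GRCm38) encodes a phosphodiesterase that splits glycerophosphocholine into choline and glycerol phosphate. Its lead, Gpcpd1-206, was 20.7, 18.1 and 11.9 TPM in homozygous libraries 1, 2 and 3 and listed at 0 in the 3 WT libraries. That is 13.8%, 11.2% and 6.79% of the gene, or 10.6% ± 3.56 (SD, n = 3), and rested on an estimated 213, 142 and 94.9 fragments. The isoform is 710 nt long in 8 exons, its annotation stops within the coding sequence, and it ends 21380 nt of genome upstream of Gpcpd1-202, the main isoform (the one with the highest mean TPM). All of its 680 words of 31 letters also occur in Gpcpd1-205, a full-length coding isoform, so no stretch of that length is its own. Gpcpd1-205 was 13.7, 12.6 and 18.7 TPM in homozygous and 20.4, 19.6 and 3.53 TPM in WT libraries, which overlap. Added together, the lead and Gpcpd1-205 were 34.5, 30.7 and 30.6 TPM against 20.4, 19.6 and 3.53 TPM, with the homozygous libraries above.

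In the other isoforms of Gpcpd1, WT replicate 3 stood apart. The main isoform held 55.9%, 57.1% and 58.0% of the gene in homozygous libraries and 59.8%, 56.0% and 15.2% in WT libraries. In WT replicate 3 its place was taken by Gpcpd1-212 (31.6%), Gpcpd1-204 (27.4%) and Gpcpd1-211 (13.0%), each at 2.68% or less elsewhere. Gpcpd1-211 and Gpcpd1-212 are annotated as targets of nonsense-mediated decay, and none of these 3 isoforms has a 31-letter word of its own. The mean WT share of the main isoform was 43.7% with that library and 57.9% without it, against 57.0% ± 1.07 in homozygous muscle. Gpcpd1-208, which retains an intron and has 2042 words of its own, held 10.9% to 14.5% in homozygous and 5.64% to 14.3% in WT libraries, and the groups overlapped. The lead differs from the main isoform by 3 nt at 1 splice site, a variant that 5 isoforms share. Summed over those 5, it made up 24.7% ± 3.51 of the gene in homozygous and 25.4% ± 8.04 in WT muscle (SD, n = 3 each), which overlap. The gene sum was 150.1, 161 and 175 TPM against 140.0, 129 and 66.0 TPM.

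Lypla1 (chromosome 1, 4807788 to 4848410, plus strand) encodes an acyl-protein thioesterase, which removes palmitate from proteins. Its lead, Lypla1-203, was 7.35, 6.46 and 8.31 TPM in homozygous libraries and listed at 0 in the 3 WT libraries. Its share was 12.6%, 11.3% and 14.1% (12.7% ± 1.41, SD, n = 3), resting on an estimated 50.9, 34.0 and 44.9 fragments. It is the one lead with an exon junction in no other isoform that was also absent from all WT values: base 4832368 is joined to base 4841107, across an intron of 8738 nt that takes in 2 whole exons of the main isoform and parts of those on either side. The bases at that junction, beside those of the main isoform at its nearest junction (base 4832381 to base 4837001), are shown because they are the sequence that sets the lead apart; capitals mark the bases after the junction, in the sense of the transcript.
Lypla1-203: tctggaattaaacagGCATGATGCACAGCT
Lypla1-201: aggcagcagaaaccgTAAAAGCCTTGATAG

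Only 25 of the 499 words of Lypla1-203 are in no other isoform, and its coding sequence is 276 nt against 690 nt in Lypla1-201. The main isoform's first junction above was carried by 6 isoforms and made up 86.5%, 87.6% and 85.2% of the gene in homozygous and 98.8%, 99.4% and 98.6% in WT libraries. Lypla1 also had the widest difference in the share of a main isoform among the 9 genes. Lypla1-201 held 26.9%, 33.7% and 34.7% in homozygous libraries and 53.2%, 91.0% and 82.9% in WT libraries, so that the groups did not overlap. Its own abundance overlapped, at 18.5 ± 2.47 TPM against 23.0 ± 12.6 TPM (SD, n = 3 each). Lypla1-208, with a coding sequence of 663 nt and no word of its own, held 30.3%, 28.2% and 22.9% against 14.6%, 2.09% and 0%, with the homozygous libraries above. Lypla1-202 held 22.0%, 22.4% and 19.5% against 24.0%, 1.28% and 7.77%, which overlap, as did Lypla1-206 at 2.32% to 6.22%. Without the lead the gene was 51.0, 50.7 and 50.5 TPM in homozygous and 34.4, 41.0 and 16.1 TPM in WT libraries, and these did not overlap.

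Atp8a1 (chromosome 5, 67618140 to 67847434, minus strand) encodes a flippase that moves phosphatidylserine to the cytosolic leaflet of membranes. Its lead, Atp8a1-202, was 4.75, 4.00 and 4.16 TPM in homozygous libraries, against 0.43, 0 and 0 TPM in WT libraries 1, 2 and 3. It held 26.0%, 27.1% and 24.5% of the gene against 3.45%, 0% and 0%, a difference of 24.7 points that was the widest of the 9 leads. Both Atp8a1-202 and the main isoform Atp8a1-201 encode 3492 nt and differ by 1 exon of 74 nt, of which each holds its own version, as the first bases after the shared exon show (capitals).
Atp8a1-202: gttcactgggaaaagGTAAATGTTGGAGAT
Atp8a1-201: gttcactgggaaaagGTGGCAGTGGGGGAG

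The exon of the lead is not its own: 5 isoforms carry that first junction, among them Atp8a1-207, which ends where the main isoform does. Atp8a1-207 ran the other way, with 0.883%, 0% and 2.88% of the gene in homozygous and 5.44%, 18.5% and 25.3% in WT libraries. The exon version of the lead, summed over its isoforms, made up 30.4%, 28.9% and 31.2% in homozygous and 14.5%, 20.0% and 30.8% in WT libraries. These sums overlap, and WT replicate 3 lies with the homozygous libraries. The second junction of that exon, base 67780988 to base 67776198, is carried by 3 isoforms and made up 26.9%, 27.1% and 27.4% against 8.89%, 18.5% and 25.3%, with the homozygous libraries above and WT replicate 3 again close to them. The version of Atp8a1-201, found in no other isoform, made up 68.8%, 67.3% and 66.3% against 82.9%, 79.4% and 69.2%, with the homozygous libraries below and WT replicate 3 close to them. Atp8a1-204 stayed between 0.00254% and 5.60%. None of the 7124 words of the lead is its own, its 3′ end lies 1021 nt upstream of that of the main isoform, and without the lead the gene overlapped, at 12.4 ± 1.43 against 10.5 ± 1.71 TPM.

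Another pair of genes belongs to phosphorylation signalling. Csnk1a1 (chromosome 18, 61555274 to 61590061, plus strand) encodes the alpha isoform of casein kinase 1, a kinase of the complex that marks beta-catenin for destruction. Its lead, Csnk1a1-208, was 9.59, 12.0 and 8.32 TPM in homozygous libraries and under 0.01 TPM in every WT library. Its share was 12.4%, 14.0% and 8.97% (11.8% ± 2.58, SD, n = 3), from an estimated 188, 181 and 127 fragments. The main isoform Csnk1a1-204 held 42.9%, 41.9% and 43.6% in homozygous and 58.8%, 64.1% and 73.1% in WT libraries, with no overlap. Its TPM overlapped and had nearly equal means, 36.5 ± 3.60 and 36.3 ± 8.87.

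The lead of Csnk1a1 carries an 84 nt coding exon that the main isoform lacks, and it ends 2530 nt upstream. Csnk1a1-210 carries the same exon and shares 97.7% of the lead's words, none of which is the lead's own. Csnk1a1-210 held 18.1%, 12.1% and 20.2% in homozygous and 27.9%, 12.5% and 11.7% in WT libraries, which overlap. Over both isoforms the exon made up 30.4%, 26.1% and 29.2% of the gene against 27.9%, 12.5% and 11.7%, so that WT replicate 1 reached the homozygous range and replicates 2 and 3 did not. Csnk1a1-206, which lacks the exon and also ends early, held 13.7%, 23.9% and 20.6% against 3.71%, 17.1% and 0%, which overlap. Csnk1a1-209 and Csnk1a1-203 stayed between 0% and 9.18%, and both overlapped.

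Ywhae (chromosome 11, 75732869 to 75765845, plus strand) encodes the epsilon member of the 14-3-3 proteins, adaptors that bind phosphorylated clients. Its lead, Ywhae-204, was 13.7, 20.4 and 6.25 TPM in homozygous libraries, and each WT library listed it at 0. It is annotated as a retained intron with no coding sequence, and 93 of its 738 nt are intron sequence that no other isoform holds, covered by 91 words of its own. Its share was 6.07%, 10.4% and 2.98%, from an estimated 148, 167 and 52.4 fragments, with homozygous replicate 3 the lowest. The main isoform Ywhae-201 held 80.7%, 86.9% and 87.3% in homozygous and 92.3%, 98.5% and 98.3% in WT libraries, with the homozygous libraries below. Ywhae-203, a target of nonsense-mediated decay, was 25.8, 0 and 13.6 TPM against 11.5, 0 and 1.69 TPM and overlapped. The gene without the lead was 197 ± 18.8 against 197 ± 15.5 TPM (SD, n = 3 each).

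Ube2m and Trip12 act in the conjugation of ubiquitin and ubiquitin-like proteins. Ube2m (chromosome 7, 13035120 to 13038275, minus strand) encodes the conjugating enzyme that passes the ubiquitin-like protein NEDD8 to cullins. Its lead, Ube2m-203, was 22.4, 27.6 and 19.4 TPM in homozygous and 3.87, 4.28 and 4.06 TPM in WT libraries. It was present in all 6 libraries, with a log2 difference of 2.24 (SE 0.17) on the log2(TPM + 1) scale. Its share was 17.0% ± 3.07 against 3.37% ± 0.293 (SD, n = 3 each), with an estimated 181 to 267 fragments in homozygous and 41.3 to 42.2 in WT libraries. The lead is annotated without its start and takes 66 nt more at the end of an upstream exon than the main isoform, so that its junction of base 13037555 to base 13036660 is found in no other isoform. The bases on either side are shown for the lead and for the main isoform, whose exon ends at base 13037621; capitals mark the shared downstream exon.
Ube2m-203: ggcccctgatatttgACATTAACGAGCTGA
Ube2m-201: tccggattcagaaggACATTAACGAGCTGA

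The main isoform of Ube2m overlapped between groups, with 46.6%, 52.1% and 49.5% against 46.0%, 44.6% and 50.2%. The share that differed the other way was that of Ube2m-205, annotated as a retained intron, with 28.9%, 23.0% and 28.8% in homozygous and 47.8%, 47.8% and 39.0% in WT libraries. Ube2m-205 shares 91.1% of the lead's words, and the sum of both was 60.5, 59.2 and 59.7 TPM against 59.2, 59.9 and 55.2 TPM, which overlap. Ube2m-208 was between 2.23% and 6.53% of the gene. Without the lead the gene was 109, 110.1 and 120.5 TPM against 112, 112 and 127 TPM, also overlapping.

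Trip12 (chromosome 1, 84721189 to 84840516, minus strand) encodes a ubiquitin ligase of the HECT class. Its lead, Trip12-207, was 3.91, 3.52 and 3.32 TPM in homozygous libraries, against 0.0152, 0.274 and 0 TPM in WT libraries. Its share was 8.12% ± 0.913 against 0.245% ± 0.390 (SD, n = 3 each). The isoform is 6442 nt long, was estimated at 299.5 to 452 fragments in homozygous and 0 to 25.5 in WT libraries, and shares its 3′ end with the main isoform Trip12-212, so it is the one lead that is longer than the main. The main isoform is annotated without its start, and the full-length coding isoforms Trip12-201 and Trip12-206 end 3075 nt further downstream. The lead differs from the full-length coding isoform Trip12-201 by later acceptor sites at 2 exons, which are 18 and 81 nt shorter, both a multiple of 3 nt, and by that earlier 3′ end. These junctions occur in no other isoform and are shown with the bases after the junction in capitals, first the 18 nt and then the 81 nt difference, each followed by that of Trip12-201.
Trip12-207 first: cccaaggagctgcagGGGCTGTTGGCATGA
Trip12-201 first: cccaaggagctgcagCCTCTAGTTCTGTTG
Trip12-207 second: agccggatcattgagCAAATCAATGAAGAC
Trip12-201 second: agccggatcattgagGCAGCCCATCAGGTC

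The longer acceptor forms of Trip12, summed over 3 isoforms, made up 18.4%, 23.0% and 17.8% in homozygous and 21.9%, 20.7% and 14.0% in WT libraries and overlapped. Only 52 of the 6412 words of Trip12-207 are its own. The main isoform Trip12-212 overlapped as well, at 38.9% ± 3.25 and 39.1% ± 4.92. Trip12-206 was high in WT muscle, with 12.8%, 7.44% and 9.62% against 7.06%, 0.0246% and 0.00255%, and its groups did not overlap. Trip12-209, a short target of nonsense-mediated decay, held 27.3%, 21.8% and 21.9% against 30.3%, 30.3% and 51.3%, with the homozygous libraries below, and Trip12-201 held 9.51%, 20.6% and 17.8% against 9.06%, 13.2% and 4.39%.

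Zmynd11 (chromosome 13, 9684833 to 9765330, minus strand) encodes a chromatin reader that binds histone H3.3 trimethylated at lysine 36. Its lead, Zmynd11-202, was 5.24, 4.27 and 3.35 TPM in homozygous libraries, against 0.00306, 0 and 0 TPM in WT libraries. Its share was 12.6%, 8.50% and 7.58%, from an estimated 164, 103 and 81.9 fragments. The lead is annotated almost without untranslated sequence, with 1854 coding of 1857 nt, and none of its 1827 words is its own. Its 162 nt exon, which the main isoform Zmynd11-207 skips, made up 30.8% of the gene in homozygous and 29.7% in WT muscle when summed over all isoforms that hold it, and the groups overlapped. The main isoform held 22.4%, 26.0% and 24.4% against 38.9%, 31.1% and 40.1%.

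Zmynd11 had the most isoforms at 5% or more, 10 of its 19. Zmynd11-208, an incomplete model that ends early, held 11.3%, 13.0% and 3.45% in homozygous and 0.223%, 0% and 0% in WT libraries. Zmynd11-201 held 6.29%, 8.47% and 2.56% against 2.18%, 1.74% and 0%, and Zmynd11-210, a retained intron, 8.81%, 8.55% and 8.16% against 7.87%, 2.89% and 4.38%. All 3 were higher in every homozygous library. The full-length Zmynd11-203 held 15.9%, 13.4% and 21.4% against 24.1%, 29.8% and 22.6% and was lower. Zmynd11-206, Zmynd11-211, Zmynd11-212 and Zmynd11-216 overlapped. Without the lead the gene was 36.5, 46.0 and 40.9 TPM against 30.9, 28.4 and 22.5 TPM, which did not overlap.

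Tns1 (chromosome 1, 73910231 to 74124449, minus strand) encodes tensin 1, a protein that links integrins to actin at adhesion sites. Its lead, Tns1-220, was 4.04, 4.89 and 4.99 TPM in homozygous and 0.484, 0.387 and 0.273 TPM in WT libraries, a log2 difference of 2.03 (SE 0.19) on the log2(TPM + 1) scale. Its share was 9.06% ± 1.01 against 1.27% ± 0.127 (SD, n = 3 each), from an estimated 38.4 to 41.5 and 2.44 to 4.54 fragments. It is an incomplete model of 2 exons and 711 nt, with a first exon of 133 nt in no other isoform and 132 words of its own, and it ends 43141 nt of genome upstream of the main isoform Tns1-217. Tns1-217, 9904 nt long, held 47.4%, 46.1% and 37.9% against 50.3%, 65.2% and 74.2%, with the homozygous libraries below. Tns1-209, which also ends early, held 16.6%, 16.7% and 19.9% against 3.13%, 16.2% and 4.86%, with the homozygous libraries just above WT replicate 2. Tns1-201, 9966 nt long, held 14.4%, 17.2% and 20.7% against 27.9%, 6.10% and 4.28%, which overlap, as did Tns1-208 and Tns1-215 at 0.00214% to 5.45%. The gene without the lead was 46.3, 48.8 and 44.8 TPM against 35.5, 34.0 and 20.04 TPM, and the groups did not overlap.

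**Figure D3:**
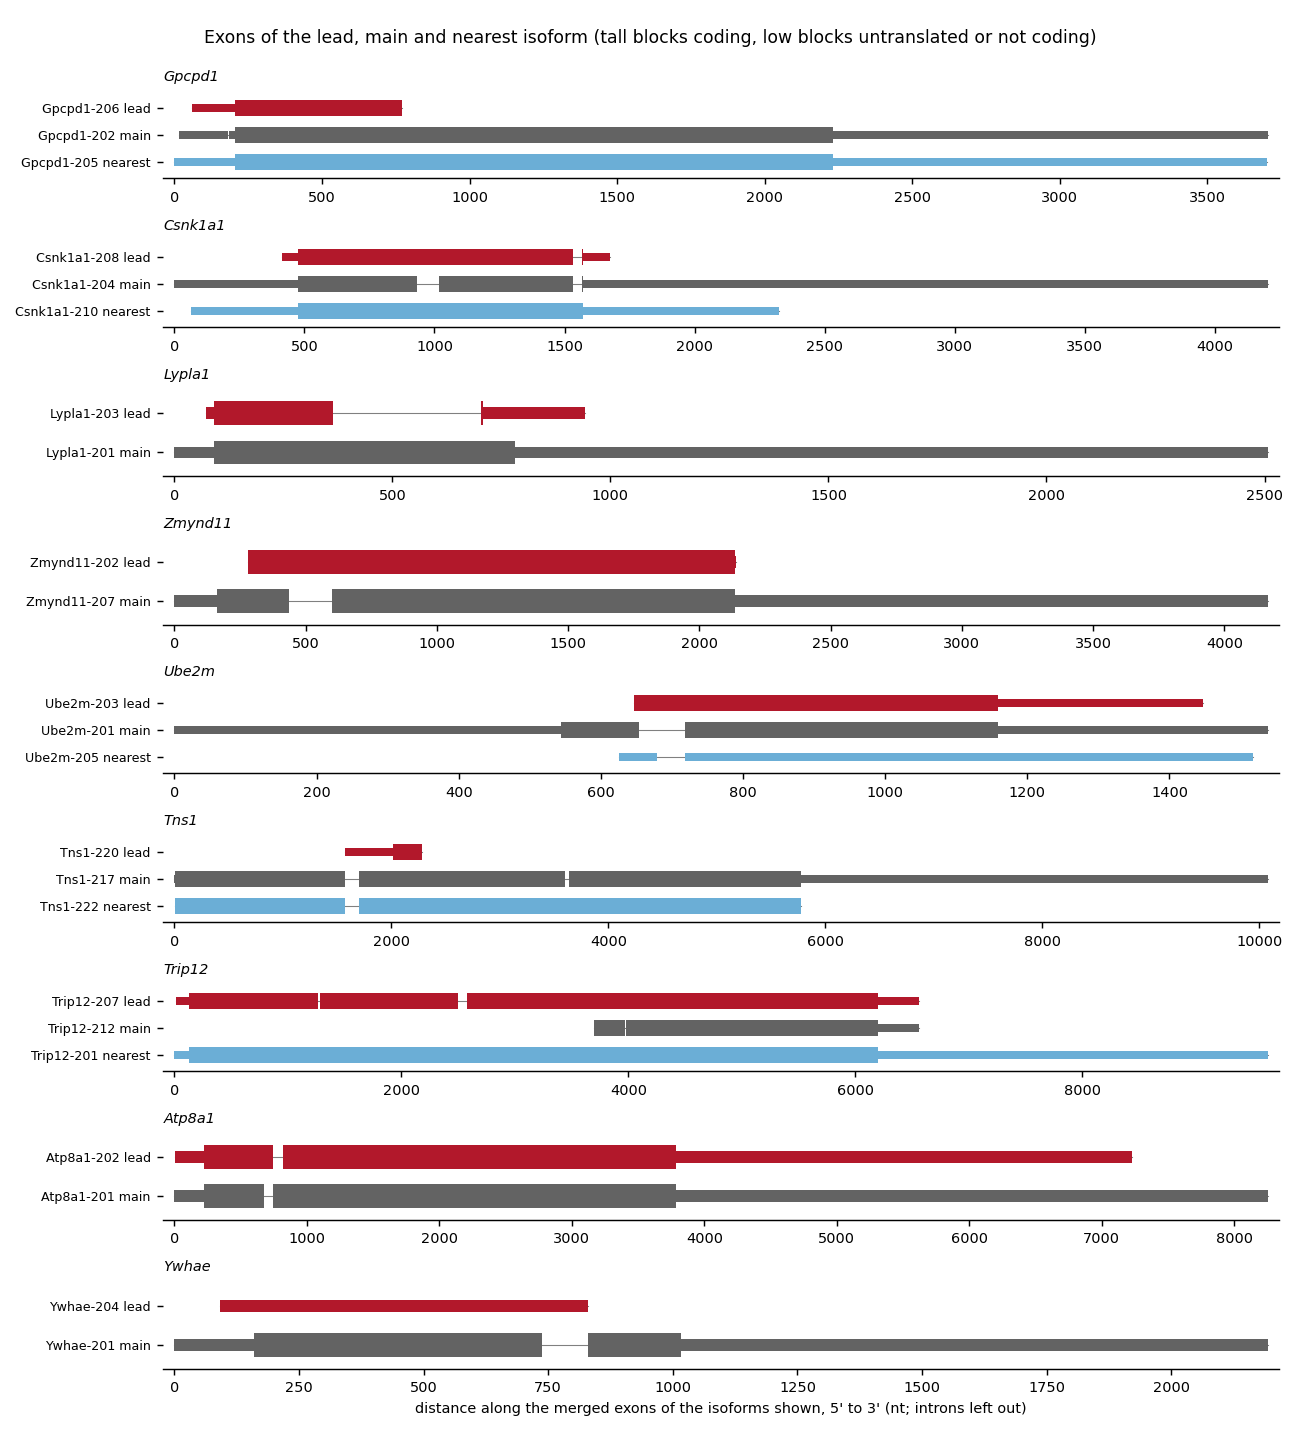
Exons of the lead isoform (red), the main isoform (grey) and, where it is another isoform, the one that shares most of the lead's sequence (blue), drawn to scale along merged exons in nt with introns left out; tall blocks are coding and low blocks are not. In 7 of the 9 genes the lead ends well before the main isoform, and in Trip12 it is longer.

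The remaining 67 of the 117 isoforms stayed under 5% of their gene in every library, the highest at 4.87%, and 11 of them were at 0 throughout. By annotation the 117 are 68 protein-coding, 25 retained-intron, 12 nonsense-mediated decay and 12 other processed transcripts. Among the leads 8 of 9 are protein-coding and 4 have no 31-letter word that other isoforms of the gene lack.

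The size of the lead differences was within the range of the whole table. Differences in mean share ran from 6.47 points for Ywhae-204 to 24.7 points for Atp8a1-202. Among the 18886 isoforms tested, 33.1% had a larger absolute difference than Ywhae-204, 12.5% than Ube2m-203 and 2.39% than Atp8a1-202. The median absolute difference was 5.58 points over the 52 isoforms of these genes and 3.68 points over all, and 16 of the 52 and 20.6% of all reached 10 points. The 52 include the leads, so nothing is read from that comparison.

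**Figure D4:**
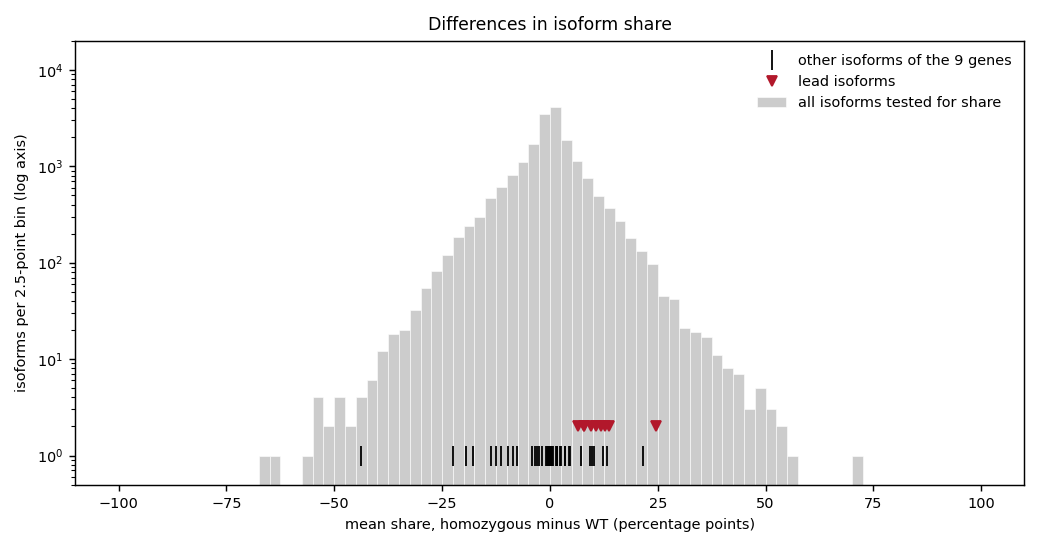
Distribution of the difference in mean isoform share, homozygous minus WT, in percentage points (horizontal axis), over all isoforms tested (grey bars, number of isoforms per 2.5-point bin on a log axis), with the leads as red triangles and the other tested isoforms of the 9 genes as black ticks. The 9 leads lie between 6.47 and 24.7 points, inside the spread of all isoforms.

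The 3′ ends of the leads were compared after their values had been seen. Of the 9 leads 7 end 1000 nt or more upstream of the main isoform, the exceptions being Ube2m-203 (91 nt) and Trip12-207 (0 nt). Among tested isoforms other than the main one, 37.4% of 10655 did so over all genes. In the 9 genes themselves it was 26 of 43 (60.5%). The 7 leads are among the 26, and several of the 43 isoforms reached 1 TPM only in homozygous libraries, so nothing is read from that share. The summed share of isoforms that end 100 nt or more upstream of the main isoform was higher in every homozygous library in 7 of the 9 genes (17% of 4174 genes) and overlapped in Ube2m and Trip12. It was 66.2% ± 3.11 against 21.8% ± 17.8 in Lypla1, 57.2% ± 0.817 against 34.7% ± 7.21 in Csnk1a1 and 31.3% ± 1.24 against 6.40% ± 4.90 in Atp8a1 (SD, n = 3 each). Since the leads are part of these sums, the sums are not independent of the choice. The share of the main isoform was lower in every homozygous library in 6 genes (14.6% of the 4174) and overlapped in Gpcpd1, Ube2m and Trip12. Without WT replicate 3 these counts were also 7 (21.1%) and 6 (20.1%), and the lead differences lay between 6.47 and 24.1 points.

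The same measure also differed between the 2 groups of libraries over all genes measured. Over 4174 genes the median share of isoforms ending 100 nt or more upstream was 12.4%, 13.2% and 12.0% in homozygous and 10.4%, 10.1% and 7.23% in WT libraries, or 12.5% ± 0.614 against 9.25% ± 1.75 (SD, n = 3 each). The exact two-sided permutation test gave p = 0.1, the smallest that 3 against 3 libraries allow, and the WT mean was 10.3% without replicate 3. Isoforms that end upstream made up 28 of the 43 tested isoforms of the 9 genes other than the main (65.1%, leads included). Among all genes it was 5625 of 10655 (52.8%). Over all genes such isoforms had a median share difference of 0.88 points and 66.0% of them a higher mean in homozygous muscle, against -0.13 points and 47.1% for isoforms that end within 100 nt of the main one. Transcripts annotated without their end held 1.92% to 1.97% of TPM in homozygous and 1.37% to 1.68% in WT libraries. Transcripts of 4000 nt or more held 5.06% to 5.54% and 4.02% to 4.95% of TPM outside mitochondrial genes. The part of these library-wide values in the results of the 9 genes was not tested.

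**Figure D5:**
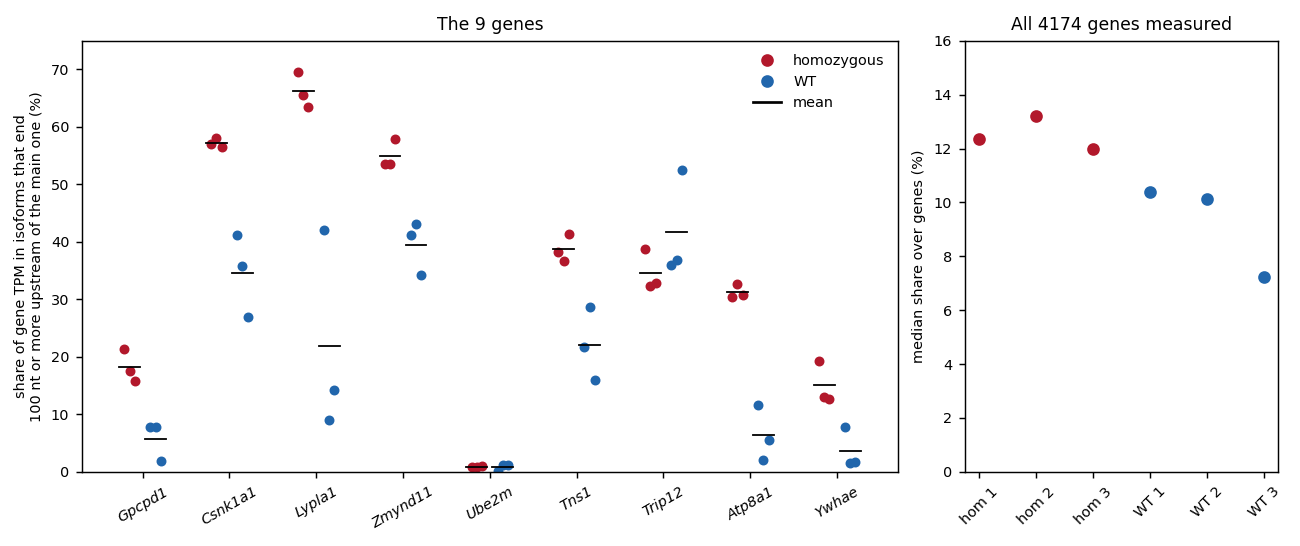
Left, share of each gene's TPM in isoforms that end 100 nt or more upstream of its main isoform (percent), 1 point per library with a bar at the group mean; right, the median of the same share over 4174 genes in each library. The homozygous libraries are above in 7 of the 9 genes, where 17% of the 4174 genes had them above, and also in the median over all genes, 12.0% to 13.2% against 7.23% to 10.4%.

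Genes that work with the 9 were taken from 9 lists by function, beside 1 list of splicing regulators and 1 of nonsense-mediated decay factors, all set up with earlier results of these data known. In no list did a gene sum or an isoform share pass the threshold in limma. Of 19 tested HECT ubiquitin ligases and related factors around Trip12, 17 were higher in every homozygous library and 0 were lower, as were 11 of 21 neddylation and cullin genes, 11 of 17 tensin and integrin adhesion genes and 9 of 16 genes of histone H3.3 and lysine 36 methylation. The counts were 9 of 14 around casein kinase 1, 9 of 16 around 14-3-3 proteins, 6 of 19 in the palmitoylation cycle, 5 of 15 in glycerophosphocholine turnover and 4 of 10 among flippases and scramblases. Among 33 splicing regulators 12 were higher, and among 15 nonsense-mediated decay factors 7 were higher and 1 was lower. These counts stand against 34.7% of all genes higher and 0.73% lower, and the lists' median log2 differences of 0.26 to 0.47 against 0.26.

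In each list the isoform with the widest share difference was taken by a fixed rule. Dcun1d1-203, of a protein that helps transfer NEDD8 to cullins, held 25.0%, 18.1% and 23.7% of its gene in homozygous and 48.6%, 36.2% and 60.2% in WT libraries. Lims1-202, of an adaptor at integrin adhesions, held 51.7%, 54.7% and 58.3% against 65.9%, 72.1% and 92.7%, and Huwe1-202, of a HECT ligase, 31.5%, 36.3% and 48.0% against 49.6%, 61.0% and 79.9%. Eftud2-211, of a spliceosome GTPase, held 4.01%, 22.0% and 9.18% against 34.0%, 23.0% and 47.7%. Of the 11 isoforms so taken these 4 were lower in every homozygous library, Eftud2-211 by a narrow margin. Over all isoforms tested it was 8.97%, but the 11 were picked for wide differences, so nothing is read from that comparison. Upf2-201, of a core factor of nonsense-mediated decay, was higher, with 60.1%, 61.0% and 61.7% against 53.2%, 41.7% and 15.0%. Hnrnpf-210, of a splicing regulator, held 15.1% to 30.6% against 25.1% to 63.5%, and Fbxw11-202 0.0014% to 27.3% against 19.5% to 78.2%, both overlapping. The others overlapped as well and were Atp11a-206 (17.7% against 39.1% in the mean), Zdhhc9-202 (20.3% against 39.7%), Gdpd5-208 (38.5% against 55.1%) and Ywhaz-201 (69.9% against 85.2%). The differences of these 11 isoforms ran from 15.4 points for Ywhaz-201 to 41.1 points for Fbxw11-202, each wider than that of every lead but Atp8a1-202, and 0 of the 11 passed the threshold.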

How the data were processed

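RNA from quadriceps muscle was poly-A selected and made into stranded libraries, per the labels' protocols. The authors deposited 1 table of TPM, in which each row is an Ensembl transcript with a gene symbol and each column a library, per the file headers. FastQC, Trimmomatic, HISAT2, kallisto and the build mm10 are named in the submitters' processing notes, with no role or order. The annotation release and filters applied are not stated in the sources used here. Each of the 6 columns matched 1 library by name, and 0 were left unmatched.

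Transcript names, lengths, biotypes, exons and sequences came from GENCODE M21 on GRCm38, which matched 103723 of the 105129 rows by ID without version. Depth was estimated from whole-number steps of low TPM values times length, keeping the depth and length correction that gave the most whole numbers. With these, 67.4% to 69.7% of the low values were whole within 0.03. Chance gives 6% for a fixed setting and more for the best of many settings. These estimates cover counting error only.

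Isoforms and gene sums that reached 1 TPM in 3 or more libraries were tested with limma 3.58.1 in R 4.3.3 (trend, robust, genotype alone in the model, two-sided, Benjamini-Hochberg over all features). Scales were log2(TPM + 1) for isoforms and gene sums, and log2((isoform TPM + 1)/(rest of the gene TPM + 1)) for shares. Isoforms reaching 5% of their gene were named. The nearest isoform of a lead is the other isoform, at 1 TPM or more in a library, that shares most of its 31-letter words. From each partner list the gene with the widest difference in mean isoform share was named. The tests were also run on simulated data with independent noise in each isoform. That setting had no reads shared between isoforms, no shift of whole libraries and no library that stands apart. It therefore cannot show how the tests perform on these data. The 9 genes, the lists and the alternatives were chosen with earlier results of these data known, and the sums over exons, junctions and 3' ends were added after seeing the table. Alternatives were each library left out, a replicate block, other pseudocounts, filters, weights and scalings, and other share scales. Python 3.11.15 and pandas 2.3.3 were used.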

Additional observations from a re-analysis of the deposited data

How the results depend on the processing

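The count of isoforms past the threshold in abundance was 9. Leaving out 1 library gave between 0 and 38. It was 0 without any 1 of the 3 homozygous libraries or without WT replicate 3, 8 without WT replicate 2 and 38 without WT replicate 1. Without a homozygous library, leads under 1 TPM in every WT library fell below the filter and were not tested. It was 0 with the replicate block, 0 with no filter, 0 with a filter of 5 TPM, 4 with a pseudocount of 0.1, 14 with array weights, 3 with quantile normalization and 5 with median centring. The 9 genes held 7 of the 38, 3 of the 8, 4 of the 4, 8 of the 14, 3 of the 3 and 4 of the 5. These genes were chosen on this contrast in the same libraries, so nothing is read from these counts. The count for isoform share was 0, and leaving out 1 library gave between 0 and 7, with 7 without WT replicate 1, of which 0 belonged to the 9 genes; every other alternative run for share gave 0. For gene sums the count was 0, and between 0 and 2 with 1 library left out (2 without WT replicate 1 and 1 without WT replicate 2). With array weights 810 of 11099 gene sums passed, among them 3 of the 9 genes, Lypla1, Tns1 and Zmynd11. The genes were chosen on this contrast, so nothing is read from that either. The cause of the changes in these counts was not tested. Of 62 alternatives for the share differences of the leads, 59 moved the value by less than 1 SD and 3 by more; the choice of the leads fixes their direction, so this is no sign of stability. The 3 counted protein-coding isoforms only and gave 13.2 points for Gpcpd1-206, 17.2 for Ube2m-203 and 11.2 for Trip12-207.

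Libraries of the same replicate number did not deviate together (r of -0.0404, 0.0346 and -0.0054). With 3 libraries per group this cannot exclude a pairing, and the labels do not say what the numbers stand for. With the replicate as a block 0 isoforms, 0 shares and 0 gene sums passed. Quantile normalization moved the median log2 difference of all isoforms from 0.25 to -0.0066. The method gives every library the same distribution, so nothing is read from that shift. Under 60 estimated fragments per library lay behind leads such as Lypla1-203 and Tns1-220, which limits the precision of their shares.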
